A study of Mus musculus with 11 samples.

Results

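Keratins are the intermediate filament proteins of epithelial cells, and each filament is built from pairs of a type I and a type II chain. Basal epithelial cells are known for the pair Krt5 and Krt14, simple (luminal) epithelium for Krt8 and Krt18 with Krt7 and Krt19, and Krt6a, Krt6b and Krt17 for their appearance in wounded, proliferating or activated epithelium. In the mammary gland, antibodies to these proteins are the usual way to tell the outer basal (myoepithelial) layer from the inner luminal layer. The levels of 10 keratin genes, chosen by name out of the 27179 genes counted, are described here across 11 RNA-seq libraries. The basal class was Krt5, Krt14 and Krt15, the stress class Krt6a, Krt6b and Krt17, and the simple class Krt7, Krt8, Krt18 and Krt19. Krt5, Krt6a, Krt6b, Krt7 and Krt8 are type II and the other 5 are type I. All 10 genes passed the filter on low counts (over 0.5 CPM in at least 3 libraries), which 15422 genes passed, and the lowest count of any of them in any library was 113 reads.

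Cells were sorted from mammary glands of wild-type virgin female FVB/N mice, 8 weeks old by the labels, into 3 populations with 3 libraries each. MaSC/basal cells (CD24+CD29hi) are the stem cell-enriched basal population, and the luminal cells (CD24+CD29lo) were divided by CD61 into luminal progenitor-enriched (LP, CD61+) and mature luminal-enriched (ML, CD61-) cells. The other 2 libraries, 1 each with no replicate, were a mammosphere culture, in which MaSC/basal cells were grown for 1 week without attachment, and the Comma Dβ line, a mammary epithelial line of Balb/c origin derived from mid-pregnant glands. The submitted name of MaSC/basal replicate 1 contains "p53" although its labels give a wild-type mouse, and libraries were made in 3 batches of which only 2 hold MaSC/basal cells. Libraries held 19958838 (LP replicate 3) to 75795034 (ML replicate 2) counted reads, so that 3 reads equalled 0.0398 to 0.160 CPM. CPM are read counts scaled to the library size after adjustment by TMM factors, and levels of different genes are compared only as RPKM, the same value divided by the exon length in kilobases. The summed CPM of 9 basal and myoepithelial genes that are not keratins was 13038 to 18631 in MaSC/basal libraries, 941 to 1320 in LP and 997 to 1121 in ML, and that of 13 luminal genes was 1373 to 1753, 8878 to 10463 and 12508 to 14895, respectively. The summed CPM of 3 LP genes (Kit, Elf5 and Itgb3, the gene of CD61) was 1091 to 1376 in LP, 214 to 469 in ML and 81.7 to 87.6 in MaSC/basal libraries. The marker genes thus followed the labels of all 9 sorted libraries, although the lists include genes of the antigens used for sorting.

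The 10 genes lie in the type II keratin cluster on chromosome 15 and the type I cluster on chromosome 11 of the mouse genome (GRCm38). Krt7 (chr15:101412403-101427806), Krt6b (chr15:101676023-101680293), Krt6a (chr15:101689928-101694305), Krt5 (chr15:101707069-101712905) and Krt8 (chr15:101996711-102004342) are joined there by Krt18 (chr15:102028216-102032026), the type I gene that stands next to its partner Krt8. Krt15 (chr11:100131759-100135949), Krt19 (chr11:100140810-100145926), Krt14 (chr11:100203162-100207510) and Krt17 (chr11:100256215-100261029) are on chromosome 11. Usable promoter sequences were at hand for only 4 of the 10 genes, and the other members were not searched. Krt5 is a basal keratin, Krt8 and Krt18 the neighbouring simple pair, and Krt7 a simple keratin that was higher in ML than in LP cells. The 150 bases before the RefSeq start of each are shown. They are intergenic flanks read on the strand of the gene, 5′ to 3′, at chr15:101712906-101713055 (minus strand) for Krt5, chr15:101412253-101412402 (plus strand) for Krt7, chr15:102004343-102004492 (minus strand) for Krt8 and chr15:102028066-102028215 (plus strand) for Krt18. Capitals mark matches, on either strand, to the motifs named after the sequences.
Krt5: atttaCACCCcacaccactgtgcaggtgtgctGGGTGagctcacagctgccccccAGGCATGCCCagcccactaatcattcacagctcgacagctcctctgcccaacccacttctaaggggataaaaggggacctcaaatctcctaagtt
Krt7: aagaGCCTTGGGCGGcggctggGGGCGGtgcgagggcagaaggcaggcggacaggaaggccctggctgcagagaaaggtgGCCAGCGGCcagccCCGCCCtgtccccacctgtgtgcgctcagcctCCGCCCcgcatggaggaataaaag
Krt8: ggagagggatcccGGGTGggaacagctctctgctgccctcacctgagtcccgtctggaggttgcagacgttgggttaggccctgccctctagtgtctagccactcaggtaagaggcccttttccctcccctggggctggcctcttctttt
Krt18: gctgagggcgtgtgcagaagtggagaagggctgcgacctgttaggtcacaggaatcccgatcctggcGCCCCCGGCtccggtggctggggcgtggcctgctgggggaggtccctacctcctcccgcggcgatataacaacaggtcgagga
The letters searched over the 250 bases before the start were GGGCGG (the GC box of Sp factors), CACCC (the core bound by Klf factors), GCCNNNGGC (the AP-2 palindrome), TGANTCA (AP-1), TATAAA and the p53-family decamer. Krt7 held 4 matches to GGGCGG, 2 to GCCNNNGGC, of which 1 overlaps a GGGCGG, and 1 to CACCC. Krt5 held 3 matches to CACCC and 1 to the p53-family decamer, the kind of site that p63, a transcription factor of basal epithelium, is known to bind. Krt8 held 2 matches to CACCC, and Krt18 held 1 to CACCC and 1 to GCCNNNGGC. Among 32851 promoters of the same length, 32.7% held GGGCGG, 52% CACCC, 13.7% GCCNNNGGC, 6.75% TGANTCA, 12.4% TATAAA and 7.13% the p53-family decamer. TGANTCA and TATAAA were not found in these 4 windows.

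Every one of the 10 keratins separated MaSC/basal from luminal cells, with no overlap between the 3 MaSC/basal and the 6 luminal libraries, as was the case for 49% of all genes tested. Krt5, Krt14, Krt15 and Krt17 were higher in MaSC/basal cells, and Krt6a, Krt6b, Krt7, Krt8, Krt18 and Krt19 were lower. In edgeR's quasi-likelihood test of MaSC/basal against the mean of LP and ML (Benjamini-Hochberg adjusted p under 0.05), all 10 passed, where 61.7% of all genes did (31.2% higher and 30.5% lower in MaSC/basal cells). The same 4 genes were higher and the same 6 lower against LP alone, where 57.4% of genes passed (29.4% higher and 28% lower), and against ML alone, where 58.7% passed (28.9% higher and 29.7% lower). The median size of the log2 fold change against the luminal mean was 5.07 for the 10 keratins and 0.67 for all genes. In bulk samples such as these, fewer cells that express a gene and less RNA of it per cell cannot be told apart.

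**Figure D1:**
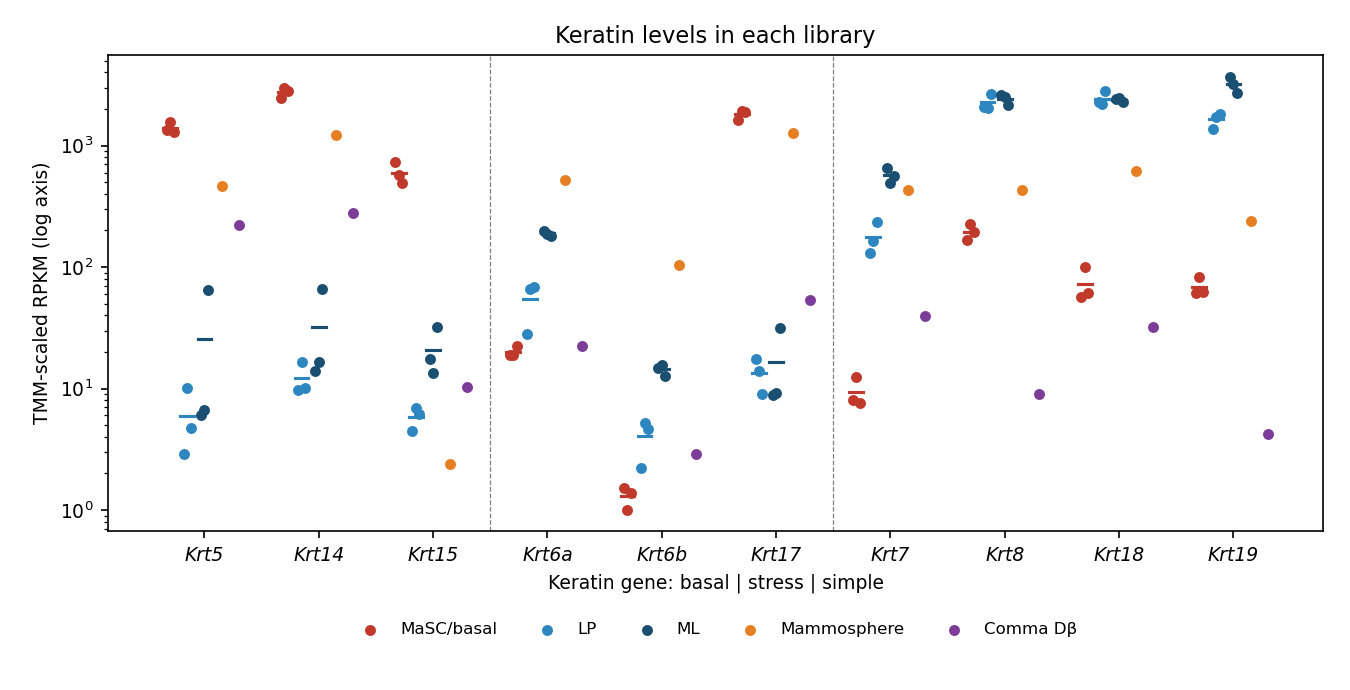
RPKM (TMM-scaled, log axis) of the 10 keratins in each library, with points for libraries and bars for the means of the 3 MaSC/basal, LP and ML libraries; dashed lines part the basal, stress and simple classes. MaSC/basal libraries lie above all luminal libraries for Krt5, Krt14, Krt15 and Krt17 and below them for the other 6 genes.

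Krt14, the type I chain of the basal pair, was the most abundant keratin of MaSC/basal cells, at 4114, 4919 and 4650.5 CPM in replicates 1 to 3. It was at 16.3, 27.5 and 16.9 CPM in LP and at 23.1, 27.2 and 109.958 CPM in ML libraries. The log2 fold change was 7.81 (SE 0.70, edgeR adjusted p = 8.08e-06) against LP and 6.42 (SE 0.65, adjusted p = 1.74e-05) against ML. Krt5, its type II partner, was at 2956, 3442 and 2852 CPM in MaSC/basal cells. In LP libraries Krt5 was at 6.38, 22.3 and 10.5 CPM, and in ML libraries at 13.2, 14.6 and 141 CPM. The log2 fold change of Krt5 was 7.87 (SE 1.09, edgeR adjusted p = 0.000157) against LP and 5.78 (SE 0.99, adjusted p = 0.000597) against ML. Without ML replicate 3, the values against ML were 7.79 for Krt5 (adjusted p = 6.39e-06) and 7.497 for Krt14 (adjusted p = 8.17e-07), and without LP replicate 2 the value of Krt5 against LP was 8.504. The SE of Krt5 was the highest of the 10 genes in both comparisons, and its luminal levels spread the most relative to their mean, with LP replicate 2 and ML replicate 3 above the rest of their groups.

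Krt15, a type I keratin of basal layers known as a marker of hair follicle stem cells, was at 1259.8, 977 and 845 CPM in MaSC/basal cells. It was at 7.65, 11.8 and 10.6 CPM in LP and 30.1, 23.03 and 54.8 CPM in ML cells. All ML libraries were above all LP libraries, and for this basal keratin the difference between the luminal populations passed the test. The log2 fold change of LP over ML was -1.84 (SE 0.32, edgeR adjusted p = 0.00292), and without ML replicate 3 it was -1.41 (SE 0.24, adjusted p = 0.00513). Its log2 fold change was 5.76 for MaSC/basal cells over the luminal mean (SE 0.28, adjusted p = 1.10e-07).

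Krt17, a type I keratin usually described as induced by wounding, lay between the basal partners in MaSC/basal cells when compared per length. Its mean there was 1813 RPKM, against 1408 RPKM for Krt5 and 2748 RPKM for Krt14. Krt17 was at 2453, 2884 and 2882 CPM in MaSC/basal, at 26.2, 21.2 and 13.5 CPM in LP and at 13.5, 14.0 and 47.9 CPM in ML cells. The log2 fold change against the luminal mean was 6.93 (SE 0.43, edgeR adjusted p = 4.52e-07), and against ML it was 6.78 with all replicates and 7.64 without ML replicate 3. Krt6a and Krt6b, the type II stress keratins, did the opposite and increased from MaSC/basal through LP to ML cells. Krt6a was at 42.6, 42.7 and 50.6 CPM in MaSC/basal, 63.6, 149.868 and 154.5 CPM in LP and 449.7, 424 and 409.8 CPM in ML libraries. Its log2 fold change was -1.44 (SE 0.29, adjusted p = 0.00170) for MaSC/basal over LP and -1.80 (SE 0.29, adjusted p = 0.00198) for LP over ML. Krt6b was lower throughout, at 2.25 to 3.37 CPM in MaSC/basal, 4.97 to 11.7 CPM in LP and 28.5 to 34.6 CPM in ML cells, with log2 fold changes of -1.64 (SE 0.29, adjusted p = 0.000822) and -1.83 (SE 0.28, adjusted p = 0.00172) for the same steps. The class named for stress was therefore not uniform, as Krt17 was highest where Krt6a and Krt6b were lowest. The transcripts of Krt6a and Krt6b were identical at 93.1% of 2224 aligned bases, and 47.5% of the 100-base windows of Krt6a and 30.6% of those of Krt6b also occur in another gene. How reads that fit several genes were counted is not given in the sources used here, so the share of each of these genes is uncertain. Krt6a also shares windows with Krt5, which was far above it in MaSC/basal cells, and the part of Krt5 reads in its level there was not tested.

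Krt8 and Krt18, the pair of simple epithelium, were high in both luminal populations. Krt8 (type II) was at 3775, 3703 and 4819 CPM in LP, 4708, 4565 and 3882 CPM in ML and 302, 405 and 348 CPM in MaSC/basal libraries. Krt18 (type I) was at 3203, 3063 and 3932 CPM in LP, 3363, 3420.2 and 3170.3 CPM in ML and 79.0, 139.867 and 85.2 CPM in MaSC/basal libraries. LP and ML libraries overlapped for both genes. For LP over ML, the log2 fold change of Krt8 was -0.10 (SE 0.20, edgeR adjusted p = 0.737) and that of Krt18 was 0.03 (SE 0.24, adjusted p = 0.925), so that no difference larger than the spread was found. Both were lower in MaSC/basal cells than in the luminal mean, with log2 fold changes of -3.59 for Krt8 (SE 0.21, adjusted p = 2.76e-07) and -5.05 for Krt18 (SE 0.27, adjusted p = 1.86e-07). Of the Krt8 transcript, 17.1% of the 100-base windows also occur in another annotated gene, mostly the pseudogene Krt8-ps, which is not among the genes counted.

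Krt7 and Krt19 were also luminal but rose further from LP to ML cells. Krt19, a type I keratin of simple and ductal epithelium with an unusually short tail, was at 1896, 2378 and 2509 CPM in LP and 5061, 4383 and 3725 CPM in ML cells, against 84.05, 114 and 85.9 CPM in MaSC/basal cells. Its log2 fold change was -0.96 (SE 0.21, edgeR adjusted p = 0.00747) for LP over ML and -5.06 (SE 0.24, adjusted p = 9.14e-08) for MaSC/basal over the luminal mean. Krt7, a type II keratin of glandular ducts, was at 208, 262 and 376 CPM in LP and 1044, 776 and 887 CPM in ML cells, against 12.7, 19.8 and 12.2 CPM in MaSC/basal cells. The log2 fold change of Krt7 was -1.68 (SE 0.26, adjusted p = 0.00180) for LP over ML and -5.92 (SE 0.32, adjusted p = 3.65e-07) for MaSC/basal over ML.

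Between LP and ML cells, 5 of the 10 keratins passed the test, where 31.8% of all genes did, and all 5 (Krt6a, Krt6b, Krt7, Krt15 and Krt19) were lower in LP cells, as were 17.5% of all genes, while 14.3% of all genes were higher in LP cells. The same 5 showed no overlap between the LP and ML libraries, which held for 47.9% of all genes. Those not called were Krt5 (log2 fold change -2.09, SE 0.85, edgeR adjusted p = 0.0851), Krt14 (-1.39, SE 0.53, adjusted p = 0.0705), Krt17 (-0.29, SE 0.46, adjusted p = 0.658), Krt8 and Krt18. The values of Krt5, Krt14 and Krt17 depended on ML replicate 3. Without it, they were -0.09 (adjusted p = 0.905), -0.32 (adjusted p = 0.408) and 0.56 (adjusted p = 0.156), respectively.

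**Figure D2:**
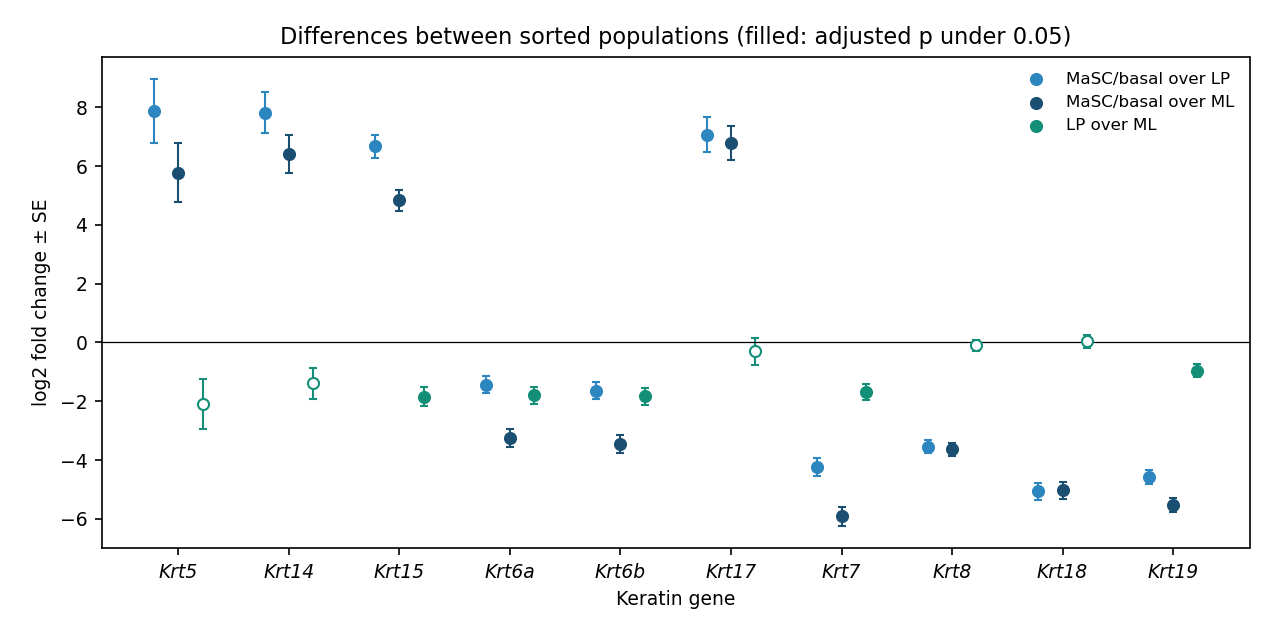
Log2 fold changes with SE from edgeR's quasi-likelihood test for each keratin, for MaSC/basal over LP, MaSC/basal over ML and LP over ML; filled points passed an adjusted p of 0.05. LP over ML is open for Krt5, Krt14, Krt17, Krt8 and Krt18, and filled and below 0 for the other 5.

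ML replicate 3 stood apart in its basal-type keratins, and other genes moved with them. Its Krt5, Krt14, Krt15 and Krt17 levels, at 141, 110, 54.8 and 47.9 CPM, were the highest of the 6 luminal libraries. Krt1 and Krt10, the keratin pair of differentiated epidermis, were at 52.4 and 92.2 CPM in that library, against at most 1.72 and 4.43 CPM in the other luminal libraries. The summed level of the 5 epidermis markers was 147 CPM, compared with 5.58 to 6.58 CPM in the other ML, 3.00 to 5.66 CPM in LP and 7.30 to 9.61 CPM in MaSC/basal libraries, although of the defining cornified envelope genes Flg was at 0 and Lor and Ivl were at 0.683 and 1.91 CPM. Keratins of the hair follicle, a list written after these values were seen, summed to 95.9 CPM there and to 2.43 and 3.24 CPM in the other ML libraries. Their sum was 0.141 to 2.29 CPM in LP and 11.4 to 14.5 CPM in MaSC/basal libraries. Trp63, the gene of the basal factor p63, was at 24.8 CPM against 1.89 and 2.18 CPM, and the smooth muscle myosin gene Myh11 at 37.3 CPM against 8.42 and 13.1 CPM. The myoepithelial actin gene Acta2 was at 36.2 CPM against 12.4 and 27.8 CPM, and the sum of the 9 basal genes, at 1086 CPM, lay between those of the other ML libraries (997 and 1121 CPM). LP replicate 2, with the highest Krt5, Krt14 and Krt15 of its group, also had the highest Acta2 (98.7 CPM against 20.5 and 53.5), Myh11 (40.8 CPM against 7.54 and 23.6) and sum of 5 fibroblast genes (1336 CPM, against 280 and 675 CPM). Krt17 was instead highest in LP replicate 1, at 26.2 CPM against 21.2 CPM in LP replicate 2. LP replicate 1 had the lowest Acta2, Myh11 and fibroblast sum of the group. Oxtr, from the same 9 basal genes, was lowest in LP replicate 2, at 16.1 CPM against 35.1 CPM in LP replicate 1. The sum of the 9 genes was still highest in LP replicate 2, at 1320 CPM, of which Itgb1 (622 CPM) and Itga6 (451 CPM) made up most. The part of these other cells' genes in the luminal levels of Krt5, Krt14, Krt15 and Krt17 was not tested.

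**Figure D3:**
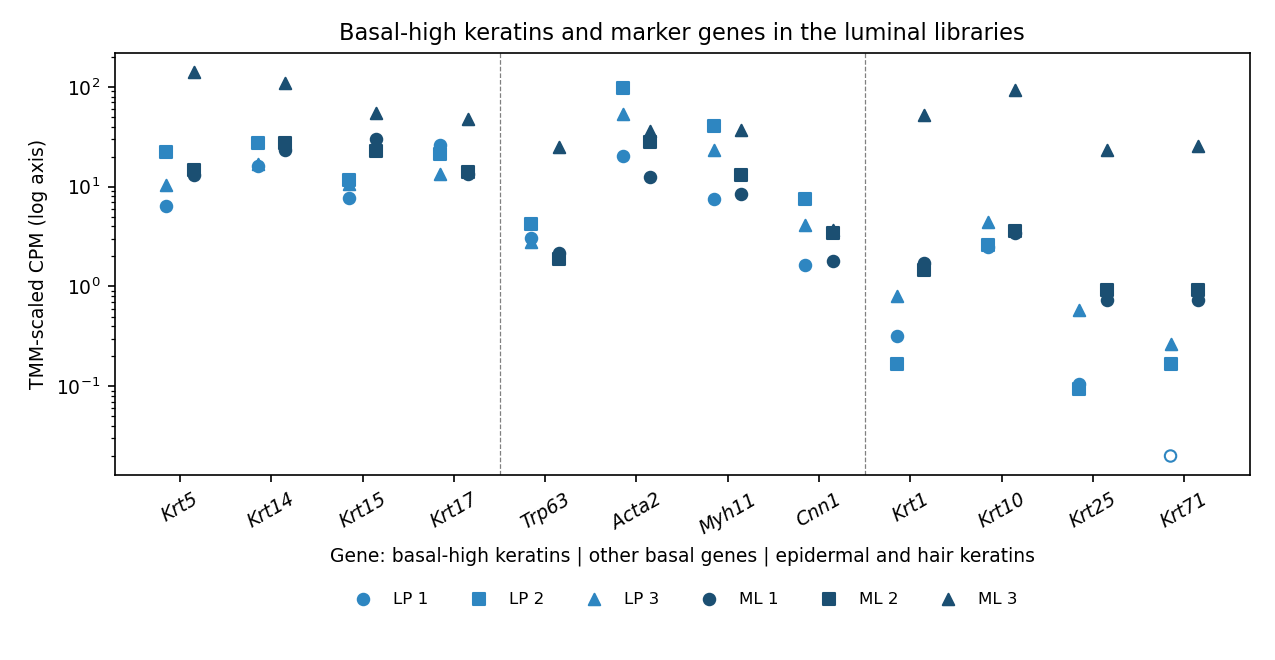
CPM (TMM-scaled, log axis) in the 3 LP and 3 ML libraries of Krt5, Krt14, Krt15 and Krt17, of 4 other basal genes and of 4 keratins of epidermis and hair; the open symbol at the lower edge is a library without reads. ML replicate 3 (dark triangles) is highest for the 4 basal-high keratins, Trp63, Krt1, Krt10, Krt25 and Krt71, whereas LP replicate 2 is highest for Acta2, Myh11 and Cnn1.

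Compared per length, the order of the keratins differed in each population. In MaSC/basal cells Krt14 (2748 ± 247 RPKM, SD, n = 3) stood above Krt17 (1813 ± 165), Krt5 (1408 ± 144), Krt15 (597 ± 123) and Krt8 (195 ± 28.6), with no overlap between neighbours. Krt18 (72.4 ± 23.9 RPKM) and Krt19 (68.9 ± 12.3 RPKM) overlapped, and Krt6a, Krt7 and Krt6b were lowest. In LP cells Krt18 (2428 ± 333 RPKM) and Krt8 (2271 ± 346 RPKM) overlapped and stood above Krt19 (1644 ± 235 RPKM). In ML cells Krt19 (3193 ± 486 RPKM) was first, with all its libraries above those of Krt8 (2429 ± 245 RPKM) and Krt18 (2370 ± 93.6 RPKM), which overlapped. Krt7 (569 ± 84.7 RPKM) and Krt6a (189 ± 8.97 RPKM) followed in ML cells, and the other keratins overlapped at the bottom of the order.

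The summed RPKM of the 10 keratins was 6497 to 7452 in the MaSC/basal group, while LP libraries had 5955 to 7643 and ML libraries 8073 to 9610.0, so that MaSC/basal and LP libraries overlapped and all ML libraries were above both. Basal-class keratins made up 67.1 to 70.2% of that sum in MaSC/basal libraries, 0.276 to 0.538% in LP and 0.390 to 2.01% in ML. Simple-class keratins made up 4.51 to 5.64%, 98.1 to 98.9% and 95.2 to 97.3%, respectively. The stress class held 25.3 to 28.2% in MaSC/basal libraries, of which Krt6a and Krt6b together made only 0.268 to 0.347% of the keratin sum. In ML libraries Krt6a and Krt6b held 2.23 to 2.41%, and Krt17 0.0926 to 0.392%.

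**Figure D4:**
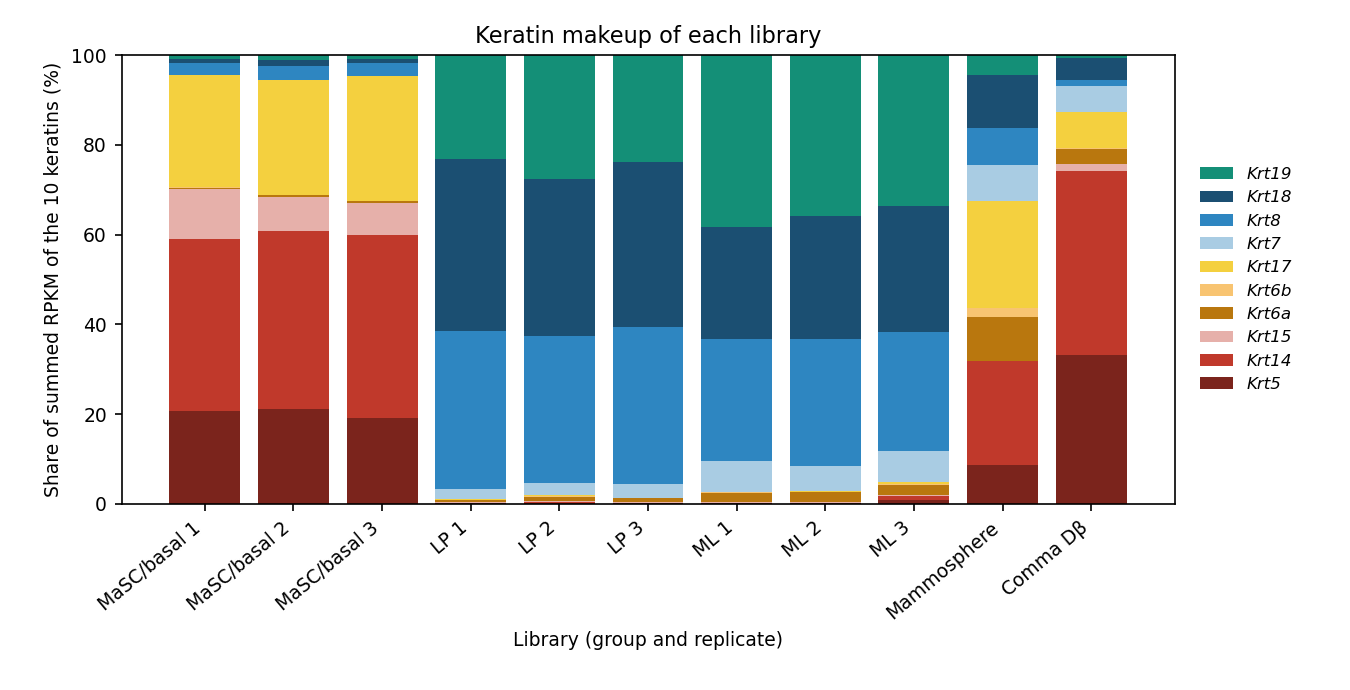
Share of each keratin in the summed RPKM of the 10 keratins, stacked to 100% for each of the 11 libraries. Red and yellow segments (basal keratins and Krt17) fill the MaSC/basal bars, blue and green segments (simple keratins) fill the LP and ML bars, and the mammosphere bar holds all classes.

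Type I and type II chains pair in equal number in a filament, which gives a question that the transcript levels can be set beside: whether partners are matched at the RNA level. For Krt8 over Krt18 the ratio of RPKM was 0.914, 0.938 and 0.951 in LP and 1.09, 1.04 and 0.950 in ML libraries, near 1 in all 6. In MaSC/basal libraries it was 2.97, 2.25 and 3.17, above every luminal library. The mean log2 ratio was higher in MaSC/basal than in luminal cells by 1.501 (exact permutation test over 84 splits, two-sided p = 0.0119, the smallest this design allows, adjusted over 4 pairs p = 0.0238). This adjusted value is lower than it would be without the pair Krt6a/Krt17, given below, whose equally small p was fixed by its single genes. With library batch as a block, which leaves out the batch without MaSC/basal cells (LP and ML replicate 3), only 18 splits remain, and the difference of 1.51 had an exact p of 0.0556, the smallest possible, which does not pass (adjusted p = 0.111). The windows that Krt8 shares with other genes leave the level of this ratio uncertain.

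For Krt5 over Krt14 the RPKM ratio was 0.545, 0.530 and 0.465 in MaSC/basal, 0.297, 0.613 and 0.470 in LP and 0.434, 0.405 and 0.973 in ML libraries. The groups overlapped, and the log2 difference of 0.05 did not pass (exact permutation p = 0.905, adjusted p = 0.905), which does not show that the ratios are equal. For Krt7 over Krt19 the ratio was 0.131, 0.1504 and 0.123 in MaSC/basal, 0.0952, 0.0954 and 0.130 in LP and 0.179, 0.154 and 0.207 in ML libraries. The log2 difference between MaSC/basal and luminal libraries was -0.03 (exact permutation p = 0.857, adjusted p = 0.905), while every ML library was above every LP library. Krt6a over Krt17 went from 0.0116, 0.00992 and 0.0118 in MaSC/basal to 1.62, 4.72 and 7.66 in LP and 22.4, 20.3 and 5.73 in ML libraries. The log2 difference of -9.37 had an exact permutation p of 0.0119 (adjusted p = 0.0238). With the batch block it was -9.42, with an exact p of 0.0556 (adjusted p = 0.111). Every MaSC/basal library was below all luminal libraries for Krt6a and above them for Krt17. This ratio was therefore bound to separate the groups, and its p-value adds nothing to the results of the single genes. Summed over all 10 genes, type II keratins stood to type I keratins as 0.308 ± 0.0195 (SD, n = 3) in MaSC/basal libraries, with 0.611 ± 0.0299 for LP and 0.574 ± 0.00715 for ML, so that type I transcripts were in excess in each. Without length scaling the ratios were 0.410, 0.790 and 0.742, respectively. Windows shared with other genes lie mostly in type II members (Krt6a 47.5%, Krt6b 30.6%, Krt8 17.1% and Krt5 3.81%). Of the type I members, only Krt14 (2.88%) has any. The part of shared reads in this excess was not tested.

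**Figure D5:**
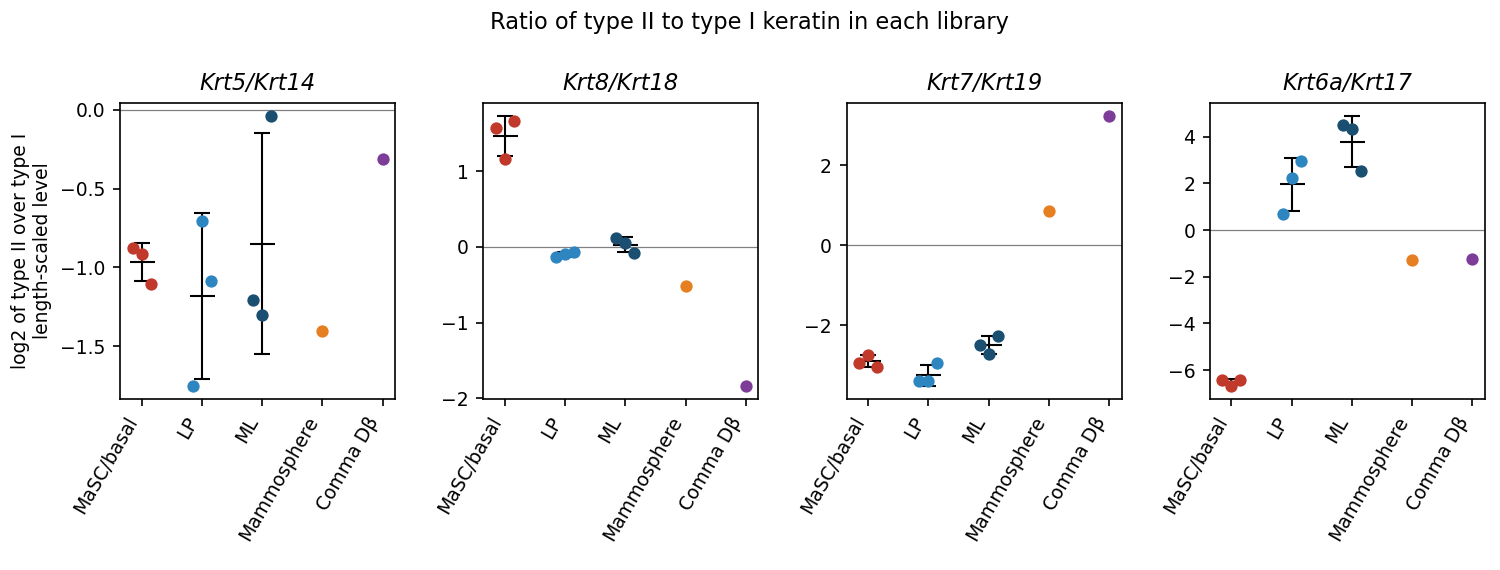
Log2 of the type II over type I RPKM ratio of 4 keratin pairs in each library, with black bars for the mean and SD of the 3 MaSC/basal, LP and ML libraries; each panel has its own axis. Krt8/Krt18 lies near 0 in luminal libraries and above 1 in MaSC/basal libraries, and Krt6a/Krt17 changes sign between them.

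Mammosphere cells, compared with the MaSC/basal mean, had lower Krt5, Krt14 and Krt15, higher Krt6a, Krt6b and all 4 simple keratins, and Krt17 within a log2 difference of 1. With 1 library there is no replicate check, and 9 of the 10 keratins were past a log2 difference of 1, where 39.7% of all genes were (19.7% higher and 20% lower). Krt15 was at 4.12 CPM against a MaSC/basal mean of 1027 CPM, 249-fold lower and below all 9 sorted libraries. Krt5 (1012 CPM) and Krt14 (2025 CPM), by contrast, were 3.05-fold and 2.25-fold below the MaSC/basal mean and still above every luminal library. Krt6a was at 1171 CPM and Krt6b at 235 CPM, 25.8-fold and 80.8-fold above the MaSC/basal mean and above all 9 sorted libraries. The ratio of Krt6b to Krt6a was 0.202, against 0.0532 to 0.0825 in the sorted libraries. Krt7 was at 683.5 CPM, 45.8-fold above the MaSC/basal mean and between the LP and ML libraries. Krt18 (869.8 CPM), Krt19 (328 CPM) and Krt8 (783 CPM) were 8.58-fold, 3.47-fold and 2.23-fold above the MaSC/basal mean and below all luminal libraries. Krt17, at 1911 CPM, was 1.43-fold below that mean. Of the summed keratin RPKM, 31.8% was basal class, 35.6% stress class and 32.6% simple class, and the ratio of Krt8 to Krt18 was 0.698. Within the stress class, Krt17 held 23.9% of the keratin sum and Krt6a with Krt6b 11.8%. The mammosphere library also held 2360 CPM of the 5 fibroblast genes, against 572 to 843 CPM in MaSC/basal libraries. Dcn among them was lower, at 98.5 CPM against 162 to 204 CPM. The 5 skeletal muscle genes summed to 75.6 CPM, against at most 9.33 CPM in the sorted libraries. The 5 epidermis markers summed to 24.6 CPM, against 7.30 to 9.61 CPM in MaSC/basal libraries. Of them, Flg and Ivl were at 6.47 and 9.17 CPM, against at most 0.0188 and 1.62 CPM. Krt10 (6.58 CPM) was little above the MaSC/basal range (4.54 to 6.25 CPM), and Krt1 (0.270 CPM) and Lor (2.07 CPM) were within theirs. The part of these genes in the keratin differences was not tested.

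The Comma Dβ line had few keratin transcripts, with a summed RPKM of 674, below that of every other library, and 0.149% of its counted reads on the 10 genes, against 0.795 to 1.48% in the sorted libraries. Relative to the MaSC/basal mean, 9 of 10 keratins were past a log2 difference of 1, where 41.7% of all genes were (16.9% higher and 24.8% lower). Krt5 (488 CPM) and Krt14 (459 CPM) were 6.32-fold and 9.93-fold lower and made up most of the keratin sum, so that the basal class held 75.7% of it. Krt15 (17.6 CPM) and Krt17 (80.4 CPM) were 58.4-fold and 34.1-fold lower. Krt8 (16.4 CPM), Krt18 (45.2 CPM) and Krt19 (5.82 CPM, 171 reads) were below all 9 sorted libraries. Krt7, at 63.3 CPM, was 4.24-fold above the MaSC/basal mean, Krt6b, at 6.43 CPM, was 2.21-fold above it, and Krt6a, at 50.6 CPM, was within the MaSC/basal range. In this library Krt18 exceeded Krt8 per length (ratio 0.281) and Krt7 exceeded Krt19 (ratio 9.43), the reverse of the order in MaSC/basal cells for both pairs. The mouse strain, the origin from pregnant glands, the culture and the library batch, which held no MaSC/basal library, cannot be told apart here. The 5 fibroblast genes summed to 3666 CPM, although Dcn among them was at 91.4 CPM, against 162 to 204 CPM in MaSC/basal libraries. Vim, the intermediate filament of mesenchymal cells, was at 1694 CPM, against 283 to 481 CPM in MaSC/basal libraries.

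The genes whose log2 CPM followed each keratin most closely were found by Pearson's r over the 11 libraries among 13959 genes with a mean over 1 CPM. These are descriptions, as the libraries are replicates of a few sample types and many genes share the main split. Krt5 was closest to Krt14 (r = 0.991), Trp63 (0.989) and the hemidesmosome collagen gene Col17a1 (0.981). Krt14 was closest to Krt5, Gja1 (0.989) and Gnai1 (0.987), and Krt17 to Nebl (0.982), Gja1 (0.980) and Gnai1 (0.979). Krt15, which was at its lowest in mammospheres, had Cnih2 (0.987), Pygo1 (0.986) and Stox1 (0.981). Krt6a was closest to Sprr1a (0.972), a cornified envelope gene, Krt6b (0.972) and Smim5 (0.966), and Krt6b to Trex2 (0.973), Krt6a and Adam8 (0.963). Krt7 was closest to Tmprss4 (0.996), Evpl (0.992) and Sult2b1 (0.989). Krt8 was closest to Lcp1 (0.998), the epithelial transcription factor gene Elf3 (0.996) and Epb41l4b (0.994), rather than to its partner Krt18 (0.928). Krt18 had Lyzl4 (0.995), Card14 (0.994) and Mpzl3 (0.993), and Krt19 had Fam174b (0.995), Tmem30b (0.994) and Sytl3 (0.993). With r over 0.9, 620 genes followed Krt18 and 324 followed Krt5, but only 67 followed Krt6a and 50 followed Krt6b.

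Of 43 other keratins in the files, 22 passed the filter on low counts. Against LP, 10 were higher and 6 lower in MaSC/basal cells (median log2 fold change 1.16, all genes -0.01), beside 29.4% of all genes higher and 28% lower. Against ML, 5 were higher and 9 lower (median -0.74), beside 28.9% and 29.7% of all genes. Without ML replicate 3, 9 of 21 were higher and 8 lower against ML. Krt23 (112, 109 and 70.9 CPM in MaSC/basal and at most 2.71 CPM in luminal libraries) and Krt42 (60.1, 86.8 and 40.8 CPM, against at most 1.73 CPM), both type I genes, were higher in MaSC/basal cells by log2 fold changes of 5.43 (SE 0.21, edgeR adjusted p = 4.67e-08) and 5.67 (SE 0.25, adjusted p = 7.77e-08) against the luminal mean. Krt16, the usual type I partner of Krt6, was at 82.4, 77.1 and 120.3 CPM in MaSC/basal, 9.50 to 21.4 CPM in LP and 14.5 to 34.0 CPM in ML cells, highest in MaSC/basal cells. Its log2 fold change against the luminal mean was 2.26 (SE 0.30, adjusted p = 9.06e-05), and it was at 161 CPM in mammospheres. Of the 100-base windows of Krt14, 2.88% also occur in Krt16, and with Krt14 at a mean of 4561 CPM in MaSC/basal cells and Krt16 at 93.3 CPM, reads of Krt14 counted for Krt16 could make up the Krt16 level; their part was not tested. Krt87 was lower in MaSC/basal cells (0.627 to 1.41 CPM, against 9.83 to 36.1 CPM in luminal libraries) and Krt4, a keratin of stratified mucosa, was at 57.0, 43.1 and 25.6 CPM in ML cells and at most 16.05 CPM elsewhere in the sorted libraries. Between LP and ML, none was higher and 15 were lower in LP cells (median -2.15), beside 14.3% and 17.5% of all genes, but without ML replicate 3, in which Krt1, Krt10 and the hair keratins stood out, 8 of 21 were lower. In mammospheres Krt80 (304 CPM) and Krt79 (221 CPM) exceeded every sorted library, at most 54.9 and 15.3 CPM.

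Plakins and plakophilins tie keratins to desmosomes and hemidesmosomes. Of 12 linker and plaque genes, all of which were tested, 4 were higher and 6 lower in MaSC/basal cells than in the luminal mean (median log2 fold change -0.35, all genes -0.01), beside 31.2% of all genes higher and 30.5% lower, so the share that was higher is near that of all genes. Pkp1, the plakophilin of stratified epithelium, was at 299, 351 and 485 CPM in MaSC/basal libraries and 25.3 to 102 CPM in luminal libraries (log2 fold change 2.96, SE 0.22, edgeR adjusted p = 1.53e-06). Pkp2, the plakophilin of simple epithelium and heart, was at 1.61, 2.09 and 1.86 CPM, against 58.9 to 99.4 CPM (-5.38, SE 0.16, adjusted p = 2.01e-08). Dsp (1.37, SE 0.16, adjusted p = 3.32e-05) and Dst (1.29, SE 0.22, adjusted p = 0.000516) were higher in MaSC/basal cells, and Evpl (-3.35, SE 0.20, adjusted p = 3.21e-07) and Ppl (-2.45, SE 0.26, adjusted p = 2.08e-05), which encode envoplakin and periplakin, were lower. Plec, encoding plectin, was lower in LP than in ML cells (log2 fold change -1.25, SE 0.19, adjusted p = 0.00170). Of 6 genes of other intermediate filaments, 4 were higher and 1 lower in MaSC/basal cells than in the luminal mean, where 31.2% of all genes were higher and 30.5% lower. Vim was at 283, 481 and 319 CPM in MaSC/basal and 13.7 to 62.8 CPM in luminal libraries (3.61, SE 0.37, adjusted p = 1.55e-05).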

How the data were processed

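RNA-seq libraries (single-end reads of 100 bases) of 9 sorted and 2 cultured samples were used. The authors aligned reads to mm10 with Rsubread, summarised them over Entrez genes with featureCounts and deposited raw counts per gene, with exon lengths, for each library. Entrez IDs were matched to RefSeq symbols (25275 of 27179), and the sequences and positions are from RefSeq and GENCODE tables of GRCm38. Groups come from the labels, and replicates were numbered in accession order, so p-values measure the spread between these samples. The members and gene lists were chosen with earlier results of these data known.

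The analysis ran in R 4.3.3, and the count test was that of edgeR 4.0.16. Genes over 0.5 CPM in at least 3 libraries were kept (15422) and scaled by TMM. The quasi-likelihood fit took all 11 libraries, each sample type having its own mean, with Benjamini-Hochberg adjustment over all genes tested. SE is the size of the log2 fold change divided by the square root of the F statistic. On simulated counts of 15422 genes, 92.5% of 200 genes changed by 2 on the log2 scale were recovered for MaSC/basal against LP. Every simulated gene had the same dispersion (spread beyond counting error), and only those 200 genes were changed. These data differ in both, so the share recovered does not carry over to them. Cultured libraries were compared with the MaSC/basal mean of log2 CPM (prior count 2), with no test. Pair ratios used length-scaled counts plus 0.5 reads, and exact permutation tests enumerated all splits of the 9 sorted libraries. Named genes were the 10 members, the 3 closest genes of each, and list genes over 10 CPM in a group mean, with Lor, Ivl, Flg and marker genes named beside them after their values were seen. Alternatives were RLE factors, no scaling, other filters, DESeq2 1.42.0, limma 3.58.1 with voom, the sorted libraries alone, library batch as a block and each replicate left out. Of the replicate pairs, none agreed within sampling noise. The pairing by library batch comes from the labels: deviations from the group means had a median correlation of 0.240 (-0.118 to 0.526) over 9 pairs of libraries of one batch and -0.103 over the other 18. CPM floors and read counts cover counting error only, since molecular identifiers are not described.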

Additional observations from a re-analysis of the deposited data

How the results depend on the processing

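All calls of the 10 keratins in MaSC/basal against LP, ML or their mean held, in direction and side of the threshold, under each alternative run. Without TMM factors, which shifted the median of all genes by 0.147 for MaSC/basal over LP and -0.172 for LP over ML, Krt18 for LP over ML was -0.13, and with limma voom Krt17 was 0.10, neither of them called. Leaving out 1 replicate gave -0.069 (without LP replicate 3) to 0.13 for Krt18, -0.00113 without ML replicate 3, and -0.59 to 0.56 for Krt17 (positive without ML replicate 3). Krt14 passed for LP over ML without TMM factors (-1.58, adjusted p = 0.0419) and with DESeq2 (-1.38, adjusted p = 0.0168), and without ML replicate 1 or 2 both Krt14 (adjusted p = 0.0347 and 0.0321) and Krt5 (0.0465 and 0.0342) passed. Leaving out 1 replicate gave 5 to 7 keratins called between LP and ML, and 3083 (without ML replicate 1) to 5205 of all genes, against 4899. With the library batch entered as replicate block, log2 differences of Krt8/Krt18 (1.51) and Krt6a/Krt17 (-9.42) no longer passed and that of Krt7/Krt19 was 0.0900; the block changed no other call. Leaving out 1 replicate, these differences were 1.40 to 1.65 for Krt8/Krt18, -9.80 to -9.04 for Krt6a/Krt17, -0.14 to 0.088 for Krt7/Krt19 and -0.10 to 0.24 for Krt5/Krt14. The first and second did not pass when any 1 of the MaSC/basal replicates was left out (28 splits, smallest exact p = 0.0357, adjusted p = 0.0714), where the number of splits sets the limit. Without TMM factors the log2 difference of Krt14 in mammospheres was -0.94 and no longer past 1. In the Comma Dβ line 7 to 9 keratins were past a log2 difference of 1 depending on the MaSC/basal replicate left out, since Krt18 and Krt6b lie near it. The setting without ML replicate 3 for the other keratins was added after the data were seen. Shared sequence limits Krt6a, Krt6b, Krt8 and, through Krt14, Krt16, and 1 library each limits the cultures; the cause of the other changes was not tested.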
